A study of Mus musculus with 26 samples.

Results

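The proteins of the cytosolic ribosome were followed at the level of their transcripts in mouse brown adipose tissue, the fat depot that makes heat. Genes were taken by symbol (Rpl or Rps followed by a digit, Rplp0 to Rplp2, and Rpsa, without the S6 kinases and without symbols containing -ps), which matched 92 of 48432 rows of the expression table. Of these, 83 reached 1 FPKM in at least 3 of 26 libraries and are the members described here, 35 with small-subunit and 48 with large-subunit symbols. FPKM count sequenced fragments relative to transcript length and to library size. The libraries came from 2-month-old mice of the genotypes BKO and FF, which share floxed Klf15 alleles. BKO mice (Ucp1-Cre/+;K15F/F) also carry Cre under the promoter of Ucp1, so deletion is directed to cells that use that promoter, and FF mice (KLF15 flox/flox) carry no Cre. Each genotype was sampled in cold plus fasting (n = 3), in a cold challenge (n = 4), fasted at room temperature (n = 3) and fed at room temperature (n = 3). The temperature of the cold challenge and the lengths of cold and fasting are not given in the sources used here.

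A cytosolic ribosome is built from a small (40S) subunit, which reads the mRNA, and a large (60S) subunit, which joins amino acids. Their proteins are encoded by single genes scattered over the genome, and many of these genes have left processed copies, most of them pseudogenes, that keep nearly the same sequence. Ribosomal protein mRNAs typically begin with a cytosine followed by a run of pyrimidines, the 5′ terminal oligopyrimidine (TOP) tract, through which mTOR signalling and the protein LARP1 set how much of the mRNA is translated and how stable it is. Brown adipocytes also hold a separate mitochondrial ribosome, whose proteins are nuclear-encoded under the names Mrpl and Mrps.

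Start sites of 5 members and of the small nucleolar RNA host Snhg12 are shown as examples of a pyrimidine run near the annotated start, which some of the genes described below have and many do not. Those of Rpsa, Rps4x and Rpl39l are shown because these members turned out to differ most clearly in the cold. Each is 60 bases on the strand of the gene, 40 before and 20 after the annotated start, from RefSeq on GRCm38.p6. Capitals mark the longest pyrimidine run that reaches within 8 bases of the start.
Rpl14, chr9:120571477-120571536, + strand: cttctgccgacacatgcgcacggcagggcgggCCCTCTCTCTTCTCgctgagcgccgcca
Rps21, chr2:180257339-180257398, + strand: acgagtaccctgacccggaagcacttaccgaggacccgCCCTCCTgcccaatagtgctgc
Rps24, chr14:24490638-24490697, + strand: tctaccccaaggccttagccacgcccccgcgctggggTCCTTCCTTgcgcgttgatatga
Rps9, chr7:3704001-3704060, + strand: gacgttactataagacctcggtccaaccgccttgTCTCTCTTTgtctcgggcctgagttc
Rplp2, chr7:141447611-141447670, + strand: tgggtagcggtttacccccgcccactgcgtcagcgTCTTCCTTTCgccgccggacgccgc
Snhg12, chr4:132308638-132308697, + strand: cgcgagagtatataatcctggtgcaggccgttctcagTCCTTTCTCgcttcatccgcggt
Rpsa, chr9:120127726-120127785, + strand: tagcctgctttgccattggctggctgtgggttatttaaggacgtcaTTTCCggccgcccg
Rps4x, chrX:102189372-102189431, - strand: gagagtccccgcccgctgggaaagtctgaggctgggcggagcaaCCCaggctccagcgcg
Rpl39l, chr16:10170188-10170247, + strand: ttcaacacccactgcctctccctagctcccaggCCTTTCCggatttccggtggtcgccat

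The RefSeq promoter table, which gives 300 bases per gene, held 60 of the 83 members. A C within 3 bases of the annotated start, followed by at least 5 pyrimidines, stood in 22 of them (36.7%), against 7.19% of 27025 promoters. A run of at least 7 pyrimidines within 8 bases of the start stood in 43.3% of the members and 17.2% of all promoters. On either strand, CTTCCGG, a motif of ETS factors, was in 24 members (40%) and in 9.16% of all promoters. AAGATGGC, the core of the YY1 motif, was in 8.33% of members and 2.85% of all promoters, and TATAAA in 10% of members and 14.2% of all promoters. The pyrimidine start stood in 3 of 14 other mRNAs listed as TOP mRNAs (21.4%), 2 of 8 small nucleolar RNA hosts (25%), 3 of 26 initiation factors (11.5%) and 2 of 55 ribosome assembly genes (3.64%). The promoters of mitochondrial ribosomal proteins held the pyrimidine start in 5.8%, CTTCCGG in 34.8% and AAGATGGC in 17.4% of 69 genes. CTTCCGG was in 40% of ribosome assembly genes, 30.8% of initiation factors, 21.4% of the other TOP mRNAs and 12.5% of small nucleolar RNA hosts. AAGATGGC was in 5.45%, 7.69%, 14.3% and 0% of these, in the same order. These shares describe letters in a window around an annotated start, and the start used in brown fat was not measured.

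Levels of the members differed widely. Averaged over all libraries, Rpl41, the shortest large-subunit protein, had 554 FPKM, the stalk protein Rplp1 had 482 FPKM and Rps15 had 384 FPKM. At the other end, Rps27, Rpl23a and Rps23 averaged 0.702, 0.813 and 1.36 FPKM, although these are standard ribosomal proteins. Another 9 matching rows did not pass the filter, among them Rps6, the S6 kinase substrate, with 0 to 0.268 FPKM, and Rpl12, Rpl24 and Rpl10a with means of 0.549, 0.251 and 0.199 FPKM. Rpl10l and Rps12l1 were at 0 throughout. Rpl3l, a muscle-specific relative of Rpl3, lay between 0.0784 and 1.00 FPKM.

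Several of the low rows had a high copy elsewhere in the table. Rps6 averaged 0.0794 FPKM, while its processed copy Rps6-ps4, which holds 100% of the 21-base words of the Rps6 coding sequence, averaged 123 FPKM. Rpl12 averaged 0.549 FPKM and its copy Gm10275 126 FPKM. Rpl5 averaged 2.38 FPKM and Gm15500 72.2 FPKM, Rps23 averaged 1.36 FPKM and Rps23-ps1 148 FPKM, and Rps29 averaged 9.48 FPKM and Gm14303 908 FPKM. Of the 92 matching rows, 41 (35 of them members) lay below their highest related row, and 22 lay below 10% of it. A row counted as related if it shared at least 25% of the 21-base words, by GENCODE M21 transcripts on GRCm38.

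Rows differed in level by how much of their sequence recurs elsewhere, though not in 1 direction throughout. The 5 rows with no 50-base coding stretch found in other genes had a median of 14.7 FPKM and ranged from 0.417 to 242 FPKM. The 15 rows with above 0 and up to 50% of their 50-base coding stretches found in other genes had a median of 203.6 FPKM, the 45 rows with more than 50% but under 100% had 51.0 FPKM, and the 27 rows with 100% had 2.87 FPKM. Only 4 members, among them Rps3, Rpl39l and Rps19bp1, shared no such stretch. For rows with related copies, the division of reads between gene and copy is therefore uncertain in this table, and the value of a single row is the value of that row and not of the protein's whole mRNA. As a check, each member's row was also replaced by the summed FPKM of its family of related rows, and results that turn on this are given both ways. Families were formed from all 92 matching rows, and 84 passed the filter. Some of these 84 hold no member, as those of Rps6 and Rpl12, and others hold several, as that of Rps27 and Rps27rt. Among the members, Rps3a2, Rps3a3, Rpl6l, Rpl37rt and Rps4l are annotated as pseudogenes, and Rps19bp1 and Rpl7l1 match by symbol but are not subunits of the ribosome.

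**Figure D1:**
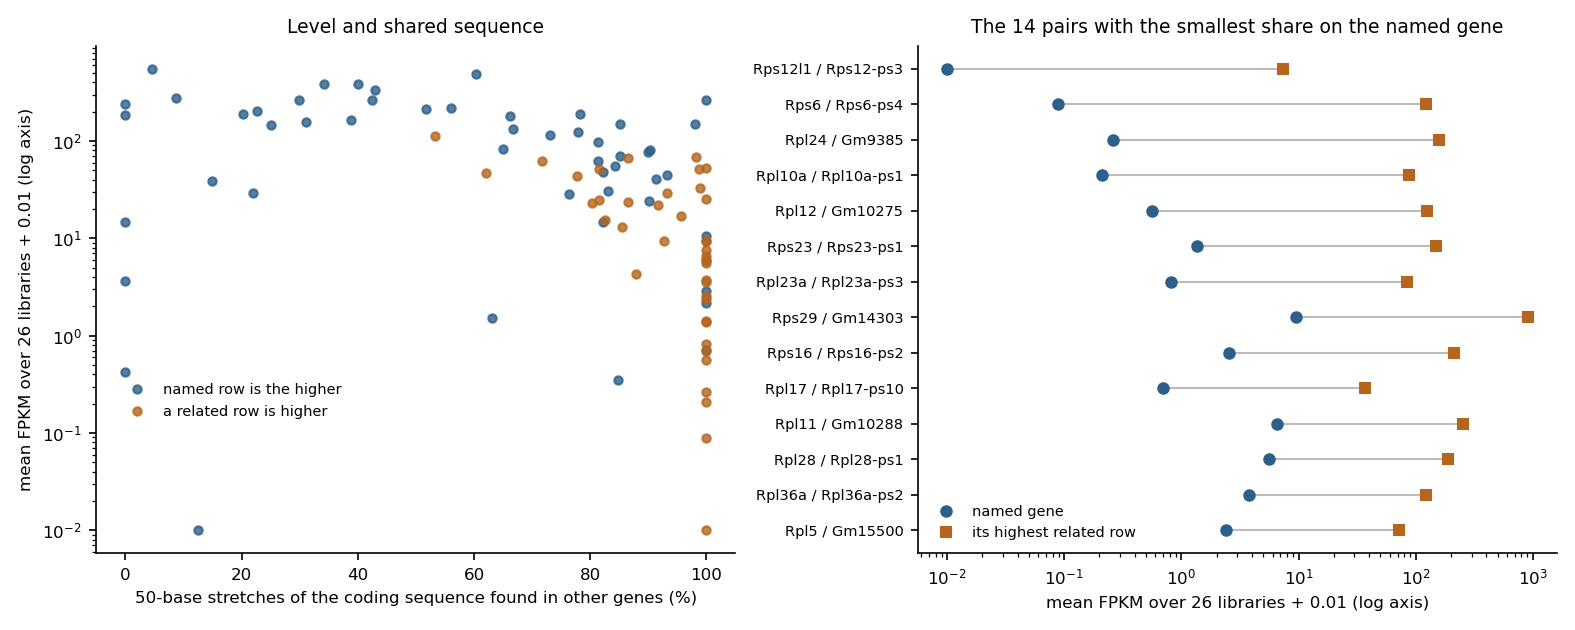
Left, mean FPKM over 26 libraries plus 0.01 (log axis) of each matching row against the share of its 50-base coding stretches found in other genes (%). Right, mean FPKM plus 0.01 (log axis) of the named gene and of its highest related row for the 14 pairs in which the named gene holds the smallest share; Rps6 and Rps6-ps4, at 0.0794 and 123 FPKM, are among the most uneven.

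Summed over the 83 members, ribosomal protein transcripts were highest in fasted mice at room temperature and lowest in the cold. The sum averaged 7542 ± 1329 FPKM in BKO mice and 6572 ± 172 FPKM in FF mice under cold plus fasting (SD, n = 3 each), and 6771 ± 288 FPKM in BKO mice and 6537 ± 220 FPKM in FF mice under cold alone (n = 4 each). It averaged 9562 ± 810 FPKM in BKO mice and 8993 ± 699 FPKM in FF mice after fasting, and 8126 ± 1104 FPKM in BKO mice and 8085 ± 536 FPKM in FF mice when fed (n = 3 each). As a share of all FPKM in a library, the members took between 1.41% and 2.42%. The cold libraries of both genotypes (6335 to 7148 FPKM) did not overlap with the fed ones (7452 to 9400 FPKM). The related rows summed to similar amounts and were likewise lower in the cold than when fed, at 6963 FPKM in the cold against 8475 FPKM fed for BKO, and 6799 FPKM in the cold against 8421 FPKM fed for FF. In whole tissue, fewer cells of a type and less RNA per cell cannot be told apart.

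**Figure D2:**
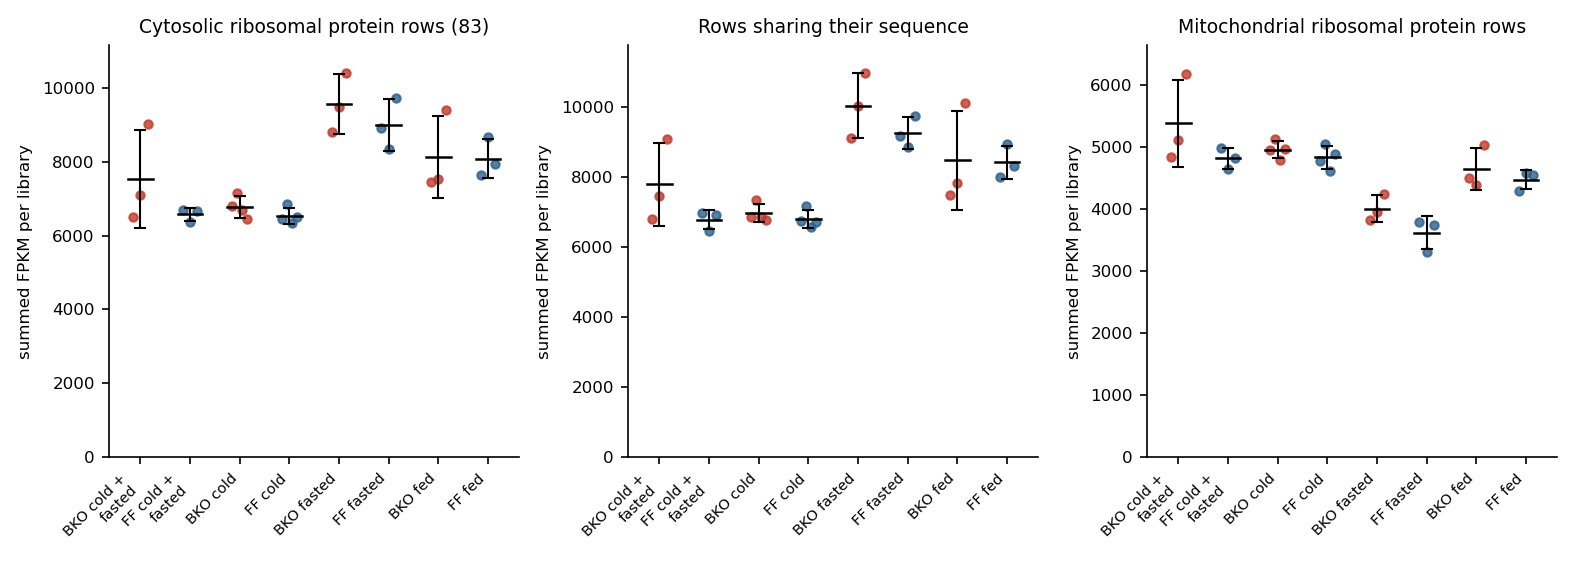
Summed FPKM per library (points, red for BKO and blue for FF) of the ribosomal protein members, of their related rows and of mitochondrial ribosomal proteins by group, with the group mean as a horizontal bar and the SD as error bars. The members' sums in the cold lie between 6335 and 7148 FPKM, below all fed libraries.

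Members of one library moved together. Libraries are counted within each group in the order of deposit. In cold plus fasting, the third BKO library was the highest of its group for 78 of 83 members (94%) but for 33% of all tested genes. The third fed BKO library was highest for 71 members (85.5%, against 30.6% of all genes) and the second fed FF library for 62 (74.7%, against 37.1%). The library order was similar for mitochondrial ribosomal proteins, of which 88.2%, 72.4% and 55.3% were highest in the same 3 libraries. The members are therefore not independent measurements of a condition, and counts of members depend on these libraries, as given beside each comparison.

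With all libraries fitted, many ribosomal protein transcripts were lower in the cold in both genotypes. In BKO mice 21 members were lower and 3 higher in the cold than when fed (limma, adjusted p under 0.05 over 12702 genes), where 6.5% of all genes were lower and 9.72% higher, so the lower count stood above that background. The median difference over the 83 members fell by 0.25 on the log2(FPKM + 1) scale used for all differences here, and 71 of 83 were negative. In FF mice 36 members were lower and 4 higher, where 10.3% of all genes were lower and 13.3% higher, again a lower count above the background, with a median of -0.27 and 70 of 83 negative. Over all tested genes the medians were 0.0050 in BKO and -0.0043 in FF mice. All 13 small-subunit calls in BKO mice and all 18 in FF mice were lower, while the large subunit had 8 lower and 3 higher in BKO and 18 lower and 4 higher in FF mice. The 2 genotypes had 18 lower members in common, which is 85.7% of those in BKO and 50% of those in FF mice. Without the third fed BKO library, 5 members were called in BKO mice (3 of them lower), and without the second fed FF library 12 were called in FF mice (9 of them lower). The lower count of each genotype thus depended on a single fed library. The shares of all genes without that library are not given here, so no excess over the background is claimed there.

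Rpsa, the small-subunit protein also known as a laminin receptor, was the clearest case. It had 43.8, 41.0, 43.8 and 40.5 FPKM in BKO mice in the cold, against 57.0, 58.5 and 70.6 FPKM in fed BKO mice. In FF mice it had 39.3, 38.8, 37.4 and 40.6 FPKM in the cold, against 62.3, 67.6 and 63.0 FPKM when fed. The cold and fed libraries did not overlap in either genotype. The difference was -0.54 (SE 0.08, limma adjusted p = 0.000117) in BKO and -0.71 (SE 0.08, limma adjusted p = 2.86e-06) in FF mice. Nearly all of its coding sequence (98.8% of 50-base stretches) recurs in other rows, and the sum of its family gave -0.52 in BKO and -0.75 in FF mice. Its BKO call held in all 37 settings.

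Rps4x, the X-linked small-subunit protein that escapes X inactivation in humans, behaved alike. It had 68.8, 73.9, 61.3 and 62.1 FPKM in BKO mice in the cold, against 81.7, 88.1 and 94.0 FPKM in fed BKO mice. In FF mice it had 64.1, 72.3, 59.4 and 66.0 FPKM in the cold, against 92.9, 105.9 and 89.2 FPKM when fed. Groups again did not overlap, with differences of -0.40 (limma adjusted p = 0.00182) in BKO and -0.55 (limma adjusted p = 6.00e-05) in FF mice. Rplp0, the base of the stalk that recruits elongation factors, fell by 0.31 in BKO and by 0.45 in FF mice (limma adjusted p = 0.0281 and 0.00162). Rplp2, another stalk protein, fell by 0.48 and 0.40 (limma adjusted p = 0.0227 and 0.0455). The BKO calls of both stalk proteins ended without fed library 3 or cold library 4, and that of Rplp2 also without cold library 3. The FF call of Rplp2 ended in 13 of 37 settings, among them without fed library 1, 2 or 3 or cold library 1, 3 or 4.

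Rps3, which lines the mRNA path of the small subunit and shares no 50-base stretch with any other gene, moved in the same direction. It had 159.5 to 168.5 FPKM in BKO mice in the cold, against 181.6 to 217.7 FPKM in fed BKO mice, a fall of 0.25 (limma adjusted p = 0.0467). In FF mice Rps3 fell by 0.29 (limma adjusted p = 0.0139). The FF call ended without fed library 2, and the BKO call in 22 of 37 settings. Of the 18 members with at most 50% shared stretches, 6 were lower and 1 higher in BKO, and 7 were lower and 1 higher in FF mice, with medians of -0.24 and -0.26. With family sums, 27 of 84 families were lower and 2 higher in BKO mice, and 45 were lower and 3 higher in FF mice.

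Rpl39l went the other way. It is an autosomal retrogene copy of the X-linked Rpl39 and, in mice, best known from male germ cells. It had 6.41, 4.68, 3.78 and 5.80 FPKM in BKO mice in the cold, against 2.00, 1.78 and 1.67 FPKM in fed BKO mice. In FF mice it had 5.24, 5.23, 5.56 and 7.23 FPKM in the cold, against 1.82, 2.12 and 1.60 FPKM when fed. Every cold library was above every fed one, with differences of 1.11 (SE 0.17, limma adjusted p = 9.52e-05) in BKO and 1.25 (SE 0.17, limma adjusted p = 1.56e-05) in FF mice. Its parent gene Rpl39 had 47.8 to 61.3 FPKM in BKO mice in the cold, against 65.3 to 83.3 FPKM in fed BKO mice, a difference of -0.36 that missed the threshold (limma adjusted p = 0.0599), and it fell by 0.41 in FF mice (limma adjusted p = 0.0228).

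The coding sequences of the pair are shown because they show how far both rows can be told apart. Both are 153 bases long without the stop codon, from GENCODE M21 on GRCm38. They are identical at 130 positions (85%), their longest identical run is 38 bases, and capitals mark the 23 positions at which they differ.
Rpl39l, chromosome 16: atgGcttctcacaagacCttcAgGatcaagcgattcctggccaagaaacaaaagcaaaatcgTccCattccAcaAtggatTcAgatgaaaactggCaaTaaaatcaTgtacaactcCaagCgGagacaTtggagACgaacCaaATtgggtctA
Rpl39, chromosome X: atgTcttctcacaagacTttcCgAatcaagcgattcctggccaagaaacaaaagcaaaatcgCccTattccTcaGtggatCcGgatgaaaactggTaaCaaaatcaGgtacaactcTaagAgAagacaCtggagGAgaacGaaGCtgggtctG

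Another 2 rows were higher in the cold in both genotypes. Rpl15, a large-subunit protein, rose by 0.35 in BKO and by 0.33 in FF mice (limma adjusted p = 0.0221 and 0.0226), with 11.02 to 14.8 FPKM in BKO mice in the cold against 9.16 to 10.7 FPKM in fed BKO mice. Its family sum moved alike, by 0.36 and 0.34. Rpl5, which binds 5S rRNA together with Rpl11, rose by 0.48 in BKO and by 0.61 in FF mice (limma adjusted p = 0.0266 and 0.00408), at 2.29 to 4.21 FPKM in BKO mice in the cold. Its copy Gm15500 stood at 60.7 ± 5.34 FPKM in BKO mice in the cold (SD, n = 4), against 73.6 ± 6.28 FPKM in fed BKO mice (n = 3). The sum of the Rpl5 family turned the direction round, at -0.24 in BKO and -0.38 in FF mice. Rpl36al, a retrogene copy of the X-linked Rpl36a, differed by 0.30 in BKO mice, which missed the threshold (limma adjusted p = 0.0714), and rose by 0.36 in FF mice (limma adjusted p = 0.0238). The BKO calls of Rpl15 and Rpl5 ended without fed library 2 or 3 or cold library 4, and that of Rpl5 also without cold library 2. The FF calls of Rpl15 and Rpl36al ended without fed library 1 or cold library 2 or 4, and that of Rpl15 also without fed library 2.

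**Figure D3:**
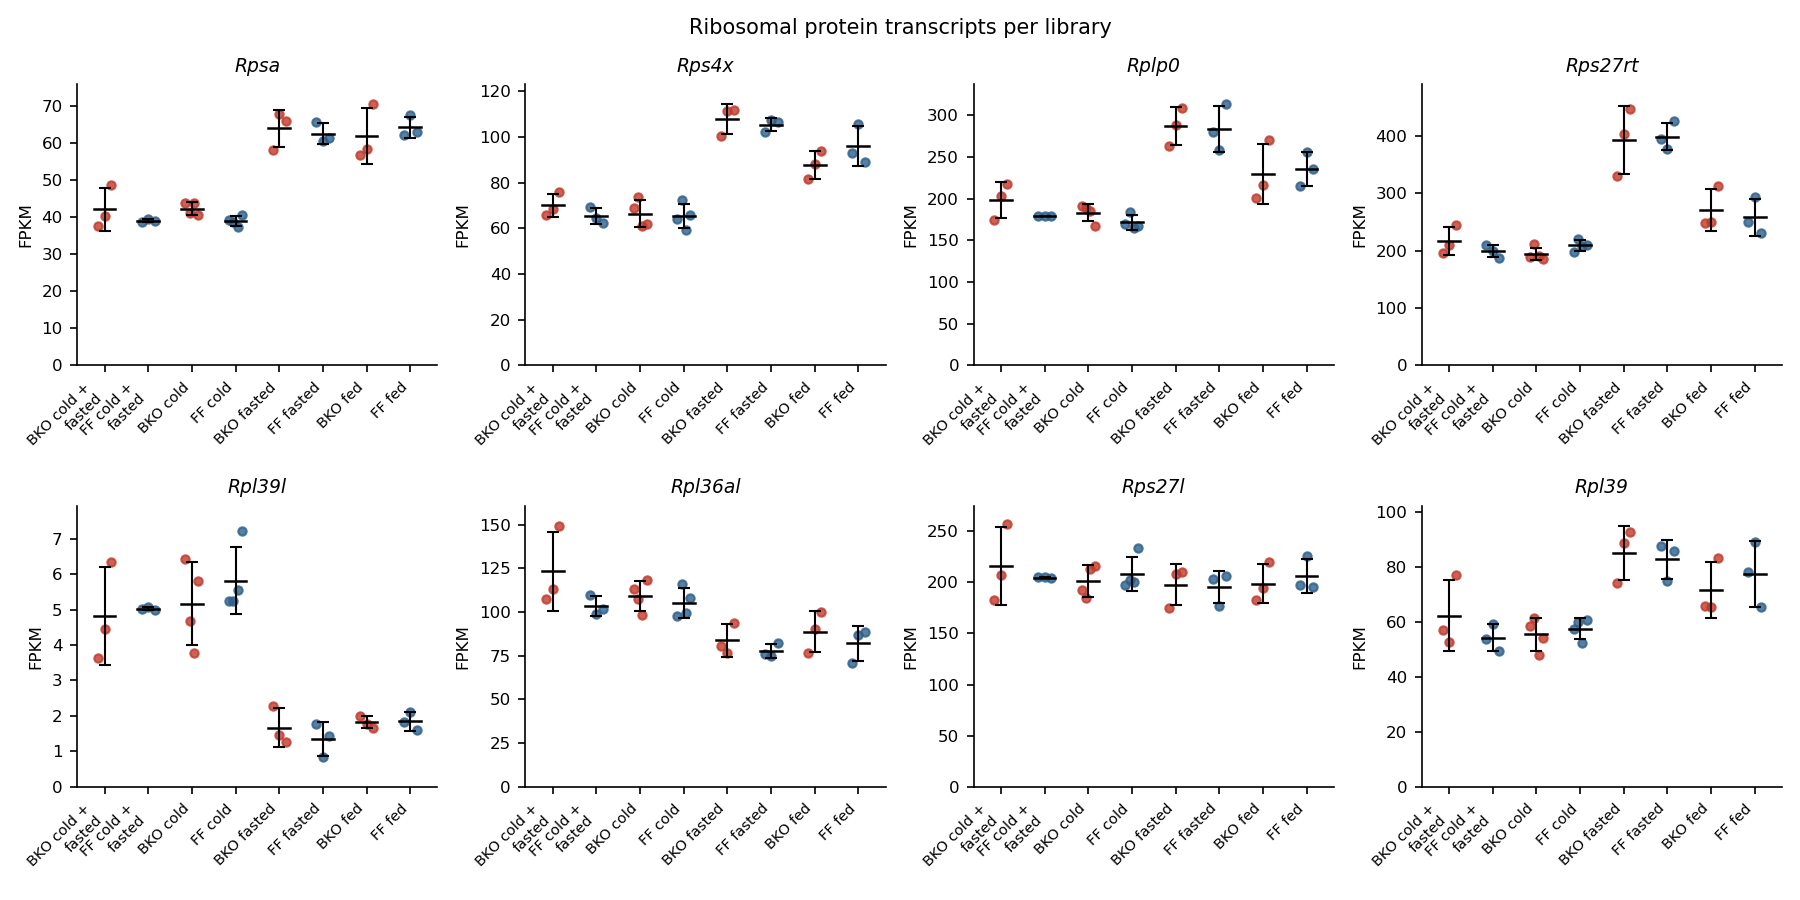
FPKM of single members in every library (points, red for BKO and blue for FF) by group, with group means as horizontal bars and SD as error bars. Rpsa and Rps4x lie lower in the cold groups than in the fed groups, Rpl39l lies at 3.65 FPKM or more in every library of cold or cold plus fasting and at 2.12 FPKM or less in every fed one, and Rps27rt is highest after fasting at room temperature.

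The descriptions give each library a serial number with the prefix CB. Those up to 8 are called the lower run here and the others the upper run. Most FF libraries in the cold (3 of 4) and fed (2 of 3) belong to the lower run, and all BKO libraries to the upper. Within the lower run, the median cold difference of FF mice was -0.29, with 69 of 83 members negative (3 against 2 libraries). Within the upper run it was -0.25, with 66 negative (1 against 1 library). With the run as a term in the model, 40 members were called in the FF cold comparison, 35 lower and 5 higher.

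After fasting at room temperature, most of the called members were higher. In BKO mice 21 members were higher and 0 lower (12.9% of all genes were higher and 14.6% lower), with a median of 0.23. With all libraries fitted, this higher count stood above the background. In FF mice 7 were higher and 2 lower (18.1% of all genes higher and 19.4% lower), with a median of 0.13, so the count of members was below the background in both directions. The genotypes had 6 higher members in common (Rpl4, Rplp0, Rps27, Rps27rt and Rps3a2 among them), 28.6% of those in BKO and 85.7% of those in FF mice. Rps27 reached 1 FPKM only in the 6 fasted libraries and so passed the filter through them, which leaves its calls against fasted mice, here and in cold plus fasting, as a description. The counts and overlaps of both comparisons in both genotypes include Rps27. The difference between the genotypes' responses passed the threshold for 0 members (limma; 0 at an unadjusted p under 0.05; 0.716% of all genes), so the unequal counts do not show an unequal response. All fasted FF libraries belong to the lower run and all BKO libraries to the upper, so this contrast mixes response and library run. The BKO count was 5 without the first and 34 without the third fed BKO library, and 11 without the second. It was 8 without the second and 7 without the third fasted BKO library. The FF count of 9 in both directions was 4 without FF fed library 1 or 3, 3 without fasted library 3 and 4 with the library run as a term.

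Rps27rt had the clearest rise after fasting. It is an intronless copy of Rps27, a zinc-finger protein of the small subunit, and both coding sequences are 252 bases long and identical at all 252 positions. Rps27rt had 329.7, 404 and 447 FPKM in fasted BKO mice, against 249, 250.01 and 313 FPKM in fed BKO mice. It had 394, 378 and 426 FPKM in fasted FF mice, against 251, 294 and 231 FPKM in fed FF mice. Groups did not overlap, with differences of 0.54 (limma adjusted p = 0.000949) in BKO and 0.63 (limma adjusted p = 0.000119) in FF mice. The Rps27 row itself held 1.15 to 2.12 FPKM in fasted BKO mice, against 0 to 0.895 FPKM in fed BKO mice. Reads that lie within the coding sequence cannot be assigned to gene or copy, and the untranslated parts were not compared. Their family sum rose by 0.54 in BKO and 0.63 in FF mice. Rps27l, a p53-induced relative with its own sequence, had 174.9 to 210.2 FPKM in fasted and 182.8 to 219.3 FPKM in fed BKO mice, which overlapped.

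Rpl4, part of the wall of the peptide exit tunnel, had 216, 246.6 and 248 FPKM in fasted BKO mice, against 182, 179.6 and 205 FPKM in fed BKO mice. It rose by 0.33 in BKO and by 0.29 in FF mice (limma adjusted p = 0.00762 and 0.0119). Without the third fasted FF library its FF call ended, at an adjusted p of 0.0641. Rplp0 rose by 0.33 in BKO and by 0.27 in FF mice (limma adjusted p = 0.0190 and 0.0422). The BKO call of Rplp0 ended without fed library 1 or 2 or fasted library 2 or 3, and its FF call without fed library 1 or 3 or fasted library 1 or 3. Rps9 rose in BKO mice by 0.40 (limma adjusted p = 0.00581), and in FF mice differed by 0.20 without passing. The members lower in fasted FF mice were Rps4l, by -0.55 (limma adjusted p = 0.0160), and Rpl15, by -0.31 (limma adjusted p = 0.0318). The Rps4l call ended without fed library 3 or fasted library 1, and the Rpl15 call without fed library 1, 2 or 3 or fasted library 3.

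Cold plus fasting stood close to cold alone. Between cold plus fasting and cold, 0 members passed in either genotype (limma; 5 in BKO and 1 in FF mice at an unadjusted p under 0.05), where 0.00787% of all genes passed in BKO and 0% in FF mice. Medians over the members were 0.11 in BKO and -0.01 in FF mice. With array weights, 2 members passed in BKO mice. Against fed mice, 5 members were lower and 4 higher in BKO mice in cold plus fasting (8.93% and 10% of all genes), and 32 lower and 2 higher in FF mice (8.93% and 11.5%). The BKO count was 19 without the third cold plus fasting library, the one in which nearly all members were highest, with 18 of them lower. The FF count was 8 without the second fed library, and 4 with the library run as a term.

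Set against fasting at room temperature, cold plus fasting gave the largest number of lower members. In BKO mice 45 members were lower and 5 higher, where 22.2% of all genes were lower and 22.9% higher, with a median of -0.35. In FF mice 55 were lower and 6 higher, where 25.9% of all genes were lower and 26% higher, with a median of -0.41. Of the lower members 44 were common to both, 97.8% of those in BKO and 80% of those in FF mice. Leaving out single libraries gave 34 to 60 calls in BKO and 47 to 63 in FF mice. All 3 fasted FF libraries belong to the lower run of library numbers and all 3 FF libraries of cold plus fasting to the upper run. The run as a term, which is estimated from the fed and cold FF libraries, left 35 calls in FF mice, 31 of them lower.

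Rps27rt had 196, 210.0 and 244 FPKM in BKO mice in cold plus fasting, against 329.7, 404 and 447 FPKM in fasted BKO mice, a fall of 0.85 (limma adjusted p = 2.50e-06). In FF mice it had 210.0, 200.3 and 188 FPKM in cold plus fasting, against 394, 378 and 426 FPKM after fasting, a fall of 1.00 (limma adjusted p = 1.99e-07). Between cold plus fasting and cold alone it differed by 0.15 in BKO and -0.07 in FF mice, neither of which passed. Rpl9 of the large subunit fell by 0.70 and 0.72 in BKO and FF mice, Rpsa by 0.59 and 0.66, Rps4x by 0.62 and 0.68, and Rps18 by 0.66 and 0.73. All of these passed in both genotypes, with limma adjusted p-values of at most 0.000375.

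The 5 members higher in both genotypes in this comparison were Rpl39l, Rps4l, Rpl15, Rpl36al and Rpl5. The Rpl5 family sum turned the direction round here too, at -0.56 in BKO and -0.66 in FF mice. Rps4l, a copy related to Rps4x and annotated as a transcribed processed pseudogene, had 46.8, 58.7 and 62.5 FPKM in BKO mice in cold plus fasting, against 25.9, 24.5 and 31.6 FPKM in fasted BKO mice. In FF mice it had 48.1, 45.3 and 44.4 FPKM in cold plus fasting, against 20.5, 24.01 and 22.8 FPKM after fasting. It rose by 1.01 in both genotypes (limma adjusted p = 7.98e-05 in BKO and 5.64e-05 in FF mice), while Rps4x fell. Rpl39l rose by 1.11 in BKO and by 1.38 in FF mice (limma adjusted p = 3.58e-05 and 1.68e-06).

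**Figure D4:**
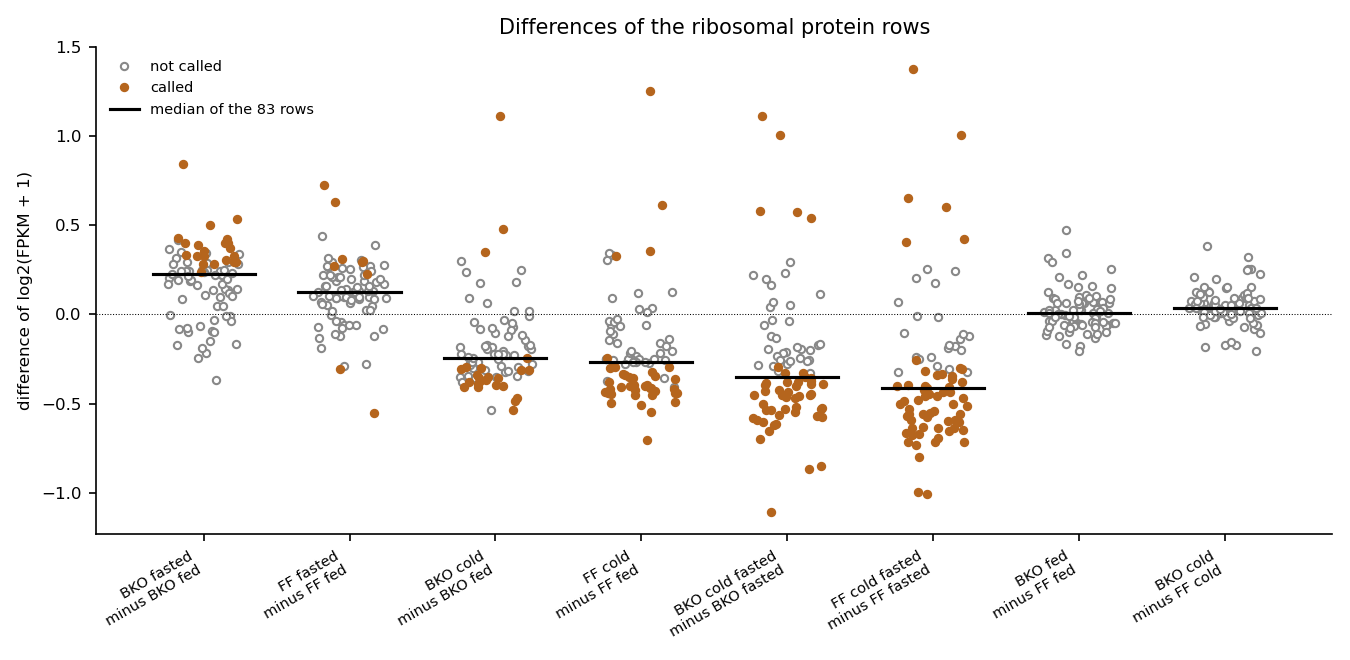
Differences of log2(FPKM + 1) of the 83 members (points, filled where called) for fasting, cold, and cold plus fasting against fasting, BKO left of FF, and for BKO against FF fed and in the cold. Most members lie below 0 in the cold and in cold plus fasting against fasting, with medians of -0.35 in BKO and -0.41 in FF mice in the last of these, and Rpl39l stands above the others in both.

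Between the genotypes no member passed within a condition. Klf15, the deleted gene, averaged 3.34, 2.42, 8.56 and 3.99 FPKM in BKO mice in cold plus fasting, cold, fasting and feeding, against 17.8, 14.1, 24.1 and 27.97 FPKM in FF mice. Of the 83 members, 0 were called between BKO and FF mice in each of the 4 conditions (limma). At an unadjusted p under 0.05 there were 8 in cold plus fasting, 4 in cold, 3 after fasting and 1 when fed, where 0.236%, 0.402%, 8.68% and 0.22% of all genes passed adjustment. All BKO libraries belong to the upper run of library numbers and all 3 fasted FF libraries to the lower run. Genotype and run thus cannot be told apart after fasting, and most fed and cold FF libraries are of the lower run too. Array weights gave 2 when fed. With family sums, 1 of 84 families was higher in BKO mice after fasting, and 0 were called in the other conditions. Medians over the members were 0.15, 0.04, 0.09 and 0.01 in the same order, and single members ranged from -0.21 to 0.47. With responses to cold and to cold plus fasting set against each other between genotypes, 0 members passed each time (1 and 3 at an unadjusted p under 0.05; 0.00787% of all genes each time).

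Averaged over the 4 conditions, 1 member passed, where 2.97% of all genes did. Rps27a, which encodes a small-subunit protein fused to ubiquitin, was higher in BKO mice by 0.25 (SE 0.07, limma adjusted p = 0.0459). It averaged 4.02 ± 0.179 FPKM in fed BKO mice and 3.12 ± 0.508 FPKM in fed FF mice (SD, n = 3 each). The call ended in 26 of 34 alternative settings, and its family sum, to which the copy Gm8430 at 65.5 FPKM adds most, differed by 0.07 (limma adjusted p = 0.483).

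Members with and without a pyrimidine start had similar medians in the cold. The 22 members with the tract had a median of -0.25 in BKO and -0.22 in FF mice, with 4 and 7 of them lower. The 38 members without it at the annotated start had a median of -0.24 in BKO and -0.27 in FF mice, with 11 and 17 lower. Some of these hold a run a little further off, as Rpl4 with 14 pyrimidines at positions -18 to -5. Rps4x, with a run of 3 pyrimidines near its annotated start, and Rpsa, with a run of 5, were among the lower members. The start used in brown fat was not measured, so this split cannot show whether the tract matters.

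Other transcripts of the same class and of ribosome production were followed in lists. Outside the symbol rule, Rack1, a signalling scaffold on the small subunit, had 108.5, 119.6, 108.6 and 107.5 FPKM in BKO mice in the cold, against 128.4, 135.6 and 153.3 FPKM in fed BKO mice. It fell by 0.32 in BKO and by 0.39 in FF mice (limma adjusted p = 0.00569 and 0.000822). Fau, which encodes a small-subunit protein fused to a ubiquitin-like one, did not pass in the cold, at a difference of 0.03 in BKO and 0.16 in FF mice.

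Among 20 other mRNAs listed as TOP mRNAs from general knowledge, 12 rose after fasting in BKO and 11 in FF mice, and 0 fell, beside 12.9% of all genes higher and 14.6% lower in BKO and 18.1% higher and 19.4% lower in FF mice, the shares to hold all fasting counts of the lists against. The medians were 0.33 and 0.25. Eif4b, an initiation factor that helps unwind mRNA leaders, had 63.1, 70.7 and 67.9 FPKM in fasted BKO mice, against 37.8, 41.6 and 39.9 FPKM in fed BKO mice, a rise of 0.74 (limma adjusted p = 5.16e-06). Npm1, a nucleolar chaperone, rose by 0.78 in BKO and 0.75 in FF mice (limma adjusted p = 6.61e-05 and 6.25e-05). In the cold 2 of the 20 fell in BKO and 6 in FF mice, beside 6.5% and 10.3% of all genes lower. Pabpc1, the poly(A)-binding protein, fell by 0.31 and 0.44 (limma adjusted p = 0.0357 and 0.00278). In cold plus fasting against fasting, 15 of 20 fell in each genotype, where 22.2% of all genes were lower in BKO and 25.9% in FF mice.

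The host genes of small nucleolar RNAs, noncoding transcripts of which several carry TOP tracts, were followed as well. All 10 rose after fasting in both genotypes, with medians of 0.86 in BKO and 0.82 in FF mice, and all 10 fell in cold plus fasting against fasting, with medians of -0.92 and -1.19. For that last comparison, 22.2% of all genes were lower in BKO and 25.9% in FF mice. Gas5 had 29.3, 29.8 and 24.2 FPKM in fasted BKO mice, against 13.4, 16.7 and 14.3 FPKM in fed BKO mice, a rise of 0.86 (limma adjusted p = 0.000332). Snhg12, whose start is shown above, rose by 1.03 in BKO and 0.88 in FF mice (limma adjusted p = 5.49e-05 and 0.000191).

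Ribosome assembly genes also rose after fasting, 22 of 60 in BKO and 36 of 60 in FF mice, with 0 and 1 lower. Ncl, which encodes nucleolin, rose by 0.55 in BKO and by 0.68 in FF mice (limma adjusted p = 0.00147 and 0.000141). In the cold 2 were higher and 0 lower in BKO (9.72% of all genes higher and 6.5% lower), and 5 higher and 1 lower in FF mice (13.3% and 10.3%). These counts were below the background in both directions. Of 31 initiation factors 11 rose and 2 fell after fasting in BKO and 14 rose and 0 fell in FF mice. In 32 genes of RNA polymerases I and III, 7 rose and 3 fell in BKO and 9 rose and 4 fell in FF mice, where the lower counts were no larger a share than among all genes. Polr1a, the largest subunit of polymerase I, rose by 0.44 and 0.77 (limma adjusted p = 0.00541 and 1.45e-05). Of 14 chaperones and importers of ribosomal proteins 4 rose in BKO and 5 in FF mice. Of 8 elongation and termination genes 0 rose and 1 fell in BKO, and 3 rose and 0 fell in FF mice.

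Mitochondrial ribosomal proteins had a different profile. After fasting 34 of 76 fell in BKO and 46 in FF mice and 0 rose, with medians of -0.24 and -0.31. In the cold 13 rose in BKO and 15 in FF mice and 0 fell, with medians of 0.08 and 0.09. Of all genes, 9.72% in BKO and 13.3% in FF mice were higher in the cold. In cold plus fasting against fasting 53 rose in BKO and 57 in FF mice, with 0 and 1 lower, where 22.9% and 26% of all genes were higher. Proteasome subunits, another large assembly, had medians of 0.01 in BKO and -0.01 in FF mice after fasting and of 0.08 and 0.01 in the cold. Of 22 genes of mTOR signalling and translation control, 6 rose and 5 fell after fasting in each genotype, a count not far from the shares of all genes in FF mice. Larp1, which binds TOP tracts, rose by 0.25 in BKO and by 0.46 in FF mice (limma adjusted p = 0.0456 and 0.000369).

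**Figure D5:**
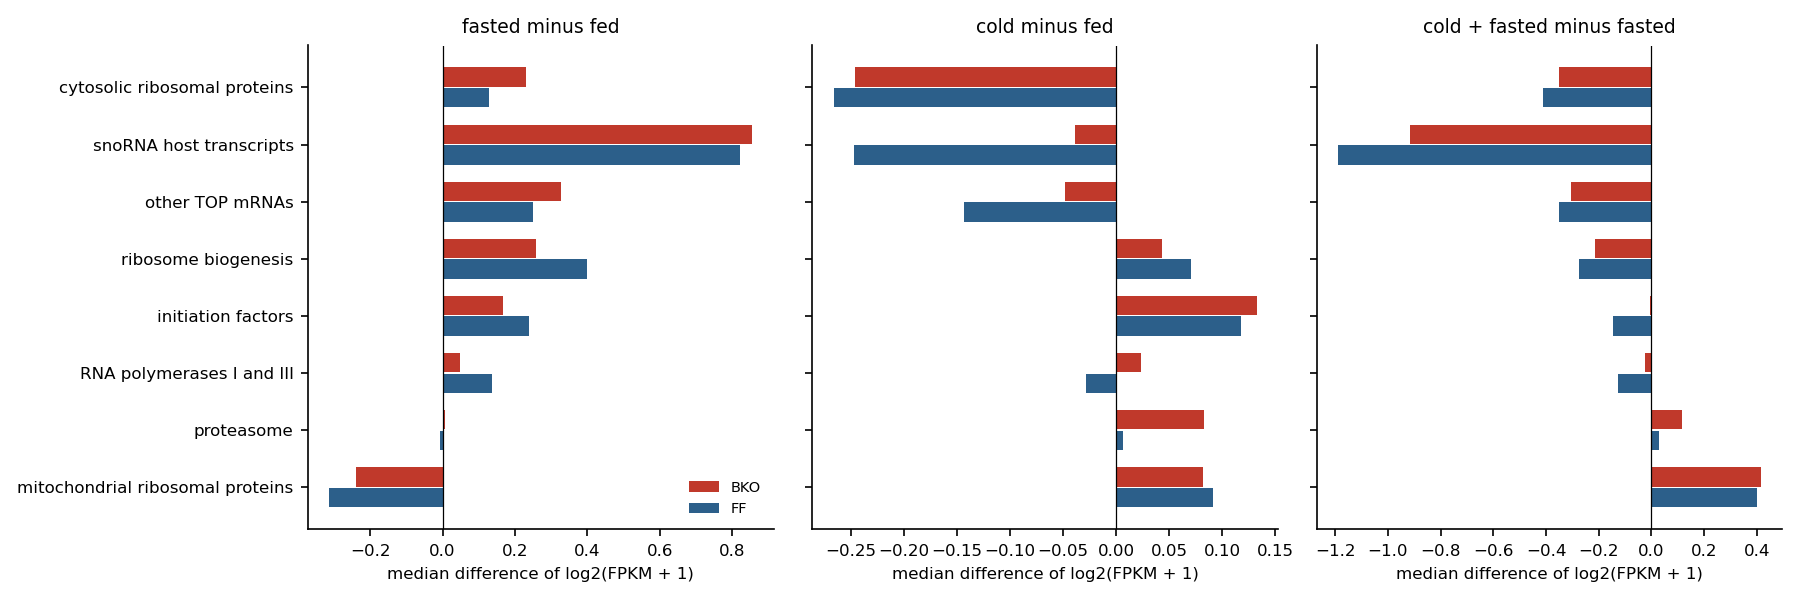
Median difference of log2(FPKM + 1) of each list in BKO and FF mice for fasting, cold, and cold plus fasting against fasting, with a different axis range in each panel. The small nucleolar RNA hosts lie furthest to the right after fasting, at 0.86 in BKO and 0.82 in FF mice, and mitochondrial ribosomal proteins lie opposite to the cytosolic ones.

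Markers of other cell types moved in the cold beside the members. Counts of called markers stand beside 9.72% of all genes higher and 6.5% lower in BKO, and 13.3% and 10.3% in FF mice. Erythroid genes (5 markers) summed to 415 to 701 FPKM in BKO mice in the cold, against 174 to 471 FPKM in fed BKO mice. In FF mice they summed to 342 to 601 FPKM in the cold, against 120 to 188 FPKM when fed, and 4 markers were higher in BKO and 5 in FF mice. Endothelial markers rose, 3 of 5 in BKO and 4 of 5 in FF mice, and fibroblast markers fell, 3 of 5 in each genotype, to 75.2 to 86.7 FPKM in BKO mice in the cold, against 109 to 160.0 FPKM in fed BKO mice. Skeletal muscle markers (11) summed to 40.1 to 226 FPKM in BKO mice in the cold, against 12.4 to 109 FPKM in fed BKO mice, and to 67.2 to 232 FPKM in FF mice in the cold, against 2.14 to 55.6 FPKM in fed FF mice. Lymphocyte markers (7) summed to 10.54 to 14.2 FPKM in BKO mice in the cold, against 5.33 to 14.5 FPKM in fed BKO mice, and to 19.1 to 44.0 FPKM in FF mice in the cold, against 5.41 to 9.12 FPKM in fed FF mice. White adipocyte markers (4) summed to 19.7 to 51.4 FPKM in BKO mice in the cold, against 43.7 to 80.0 FPKM in fed BKO mice, and to 22.99 to 32.9 FPKM in FF mice in the cold, against 46.1 to 51.5 FPKM in fed FF mice. In FF mice these 3 sums did not overlap between cold and fed, and in BKO mice each of them did. Macrophage markers (6) had 1 lower in BKO and 2 lower in FF mice.

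After fasting, white adipocyte markers summed to 19.2 to 29.7 FPKM in fasted BKO mice, against 43.7 to 80.0 FPKM in fed BKO mice, and to 24.1 to 37.3 FPKM in fasted FF mice, against 46.1 to 51.5 FPKM in fed FF mice. Lymphocyte markers summed to 3.81 to 5.23 FPKM in fasted BKO mice, against 5.33 to 14.5 FPKM in fed BKO mice, and to 3.32 to 4.01 FPKM in fasted FF mice, against 5.41 to 9.12 FPKM in fed FF mice. Both sums were lower after fasting with no overlap. In cold plus fasting, erythroid markers summed to 427 to 996 FPKM in BKO mice, against 158 to 292 FPKM in fasted BKO mice, and to 450 to 547 FPKM in FF mice, against 226 to 266 FPKM in fasted FF mice. Fibroblast markers summed to 88.8 to 96.6 FPKM in BKO mice in cold plus fasting, against 109 to 125 FPKM in fasted BKO mice, and to 85.3 to 99.6 FPKM in FF mice, against 118 to 136 FPKM in fasted FF mice. Lymphocyte markers summed there to 13.3 to 18.1 FPKM in BKO and 13.6 to 33.5 FPKM in FF mice, above every fasted library. Skeletal muscle markers summed to 78.5 to 115 FPKM in FF mice, against 6.62 to 62.5 FPKM in fasted FF mice, and overlapped in BKO mice. Endothelial markers summed to 160 to 188 FPKM in FF mice, against 148 to 150 FPKM in fasted FF mice, and overlapped in BKO mice. No marker of the lists for other cell types was at 0 throughout a group. Of the 10 brown adipocyte markers, Ucp1 is listed at 0 in every cold library, which was taken as a failed estimate and left out. The part of these cell types in the members' differences was not tested.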

How the data were processed

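RNA sequencing of brown adipose tissue gave 26 libraries in 8 groups. Per the submitters' processing notes, STAR, Cufflinks and Cuffdiff were used on mm10, and FPKM per gene were deposited by the authors; versions are not given in the sources used here. With no read counts in use, depth per library is unknown and no counting error is given. Zeros in rows where every other library has at least 100 FPKM (33 rows, 0 members) were taken as failed estimates and set to missing.

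The 12702 genes that reached 1 FPKM in 3 or more libraries were fitted as log2(FPKM + 1), a scale that understates changes of low genes, with limma 3.58.1 in R 4.3.3 (8 group means, trend, empirical Bayes) and two-sided p-values. Calls are at a Benjamini-Hochberg adjusted p under 0.05 within each contrast. P-values measure the spread between libraries. The script was tested on simulated data. Figures used Python 3.11.15 and matplotlib 3.10.9.

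The members and lists were chosen with earlier results of these data known. Named genes were, per contrast, up to 5 called members each way with the smallest adjusted p, paralogs, stalk proteins and a few others by name, the 3 highest and 3 lowest members, and up to 4 called genes per list; Rps3 and the related copies were added after their values were seen. A few genes are not reported here. Alternatives changed the pseudocount, filter, scaling, weights, library run, groups fitted and libraries left out.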

Additional observations from a re-analysis of the deposited data

Results flagged for a closer look

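In groups of 4 libraries, 84 sets of values were examined for a library far from the other 3, and 6 were found; chance gives about 1 in 20. In BKO mice in the cold, Rps27rt had 211 FPKM in replicate 2 against 186.2 to 190.2 FPKM in the others, and Rps3a2 had 18.17 FPKM in replicate 3 against 21.1 to 21.51 FPKM. In FF mice in the cold, replicate 4 stood high for 3 genes: Rps27l at 233.3 FPKM against 197.1 to 202.3 FPKM, Rpl39l at 7.227 FPKM against 5.235 to 5.56 FPKM, and Rps19bp1 at 17.02 FPKM against 13.22 to 13.5 FPKM. Rpl7l1 had 28.49 FPKM in FF replicate 3 in the cold against 32.5 to 33.15 FPKM in the others. Rps27l, Rps19bp1 and Rpl7l1 were not called in the cold in either genotype.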

How the results depend on the processing

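No paired analysis was possible because the labels give no replicate numbers that groups share. Of 157 pairs of a named gene and a comparison, 152 kept their direction in every setting and 51 kept their call in every setting. The exceptions in direction are Rpl5 with family sums, at -0.3751 (FF cold), -0.4205 (FF cold plus fasting against fed), -0.2411 (BKO cold), -0.6552 (FF cold plus fasting against fasting) and -0.5579 (BKO, the same), where the copy Gm15500 makes up most of the sum.

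Counts of called members moved by over 1.5 times as follows, given as BKO fasting, BKO cold, BKO cold plus fasting against fed, FF fasting and FF cold plus fasting against fed, where the main counts were 21, 24, 9, 9 and 34. Quantile normalization gave 33, 44, 32, 18 and 52. Rescaling each library to 1 common sum gave 32, 45, 36, 21 and 53. Array weights gave 35 (BKO fasting), 27 (BKO cold plus fasting), 22 (FF fasting) and 53, and also 2 for BKO cold plus fasting against cold, 2 for BKO against FF when fed and 3 for the average. Without a filter there were 13 in BKO fasting and 14 in BKO cold, and median centring gave 15 in BKO cold. Fitting only the groups compared gave 5, 6 and 1 in BKO mice, 5 in FF fasting and 31 in BKO cold plus fasting against fasting. The library run as a term gave 4 in FF fasting, 4 in FF cold plus fasting against fed and 35 against fasting. The upper run alone gave 12 and 14 in BKO fasting and cold, 0 in FF cold and 2 in FF cold plus fasting against fed, where FF has 1 fed and 1 cold library. Family sums gave 14 members in FF fasting, where members of the same family share their sum. The 1 call of the average over conditions was 0 with no filter, a mean of 5 FPKM, quantile normalization, median centring, the run as a term and family sums. The cause of these shifts was not tested.

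Leaving out 1 library at a time gave 5 to 34 calls in BKO fasting, 5 to 33 in BKO cold, 6 to 19 in BKO cold plus fasting against fed, 3 to 11 in FF fasting, 12 to 45 in FF cold, 8 to 41 in FF cold plus fasting against fed, 34 to 60 and 47 to 63 in cold plus fasting against fasting in BKO and FF, and 0 to 2 for the average. In comparisons between genotypes and of responses it gave 0 each time.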
